A study of Zea mays with 12 samples.

Results

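sig1 and sig3 encode sigma factors, the nuclear-encoded subunits that guide the plastid RNA polymerase to promoters. The platform annotation, with synonyms from the RefSeq gene table, assigned 1 probe set (a group of short probes for 1 transcript) to each gene. They are 2 of the 1108 genes named on the array, which holds 17621 probe sets besides its controls. sig1 was measured by Zm.439.1.A1_at (gene ID 541691) and sig3 by Zm.12554.1.S1_at (gene ID 542081). They were chosen by their signals in these samples, higher in B73 for sig3 and higher in Mo17 for sig1, and by their levels in the hybrids. Those values are therefore given as a description with no test.

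The samples were embryos of field-grown maize at 19 days after pollination. There were 4 genotypes, with 3 biological replicates each: the reciprocal hybrids B73xMo17 and Mo17xB73, and their inbred parents B73 and Mo17. Each replicate number stands for its own collection date, shared by all genotypes. RNA was hybridised to 12 single-colour Affymetrix maize arrays, and the title of the series asks whether genes that differ between the inbreds are expressed additively, at the parental mean, in the hybrids. No deletion, transgene or treatment is recorded for any group.

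Plastids transcribe their own genome with a bacterial-type polymerase whose core is plastid-encoded, and this core needs a nuclear-encoded sigma factor to start at a promoter. A separate phage-type polymerase, encoded wholly in the nucleus, also transcribes plastid genes and is best known for the housekeeping genes of young plastids. In a seed embryo the plastids are still small and mostly not photosynthetic, and the nuclear genes of photosynthesis are largely silent until the seedling greens.

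The arrays of a group correlated with each other between 0.968 and 0.975 (Pearson r of normalized log2 signal over all probe sets), and the lowest correlation between any arrays was 0.914. The embryo genes were storage and LEA genes with the regulator vp1. All 9 of them lay at or above the 25th percentile of all values on every array. So did 29 to 31 of 37 endosperm genes, depending on the genotype. The summed signal of the endosperm genes was 94590 to 100900 in B73xMo17, 92230 to 101400 in Mo17xB73, 86780 to 95170 in B73 and 71030 to 92120 in Mo17. The summed signal of the embryo genes was 42480 to 44550 in B73xMo17, 44420 to 50080 in Mo17xB73, 38530 to 42190 in B73 and 36270 to 44290 in Mo17. A sum weighs bright genes most. Gene by gene, 5 of the 37 endosperm genes were called (limma adjusted p under 0.05) higher in B73 and 11 higher in Mo17. That was 43.2% in all, against 35.9% of all probe sets. Between the reciprocal hybrids 5 of 37 were called (13.5%, against 0.868% of all probe sets). Of the 9 embryo genes 5 were called higher in B73 and 1 higher in Mo17 (66.7% in all). Between the reciprocal hybrids 1 of these 9 was called (11.1%). The part of endosperm RNA in the results below was not tested. RNA of whole embryos was measured, so fewer cells with a transcript and less transcript per cell cannot be told apart.

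sig3 gave a moderate signal in B73, a clearly lower one in the hybrids and very little signal in Mo17. In normalized linear units, replicates 1 to 3 measured 105.1, 130.4 and 104.4 in B73xMo17. They measured 114.5, 121.8 and 78.3 in Mo17xB73. The inbreds measured 191.8, 230.3 and 184.6 in B73 and 3.099, 35.94 and 14.94 in Mo17. Every hybrid array lay below every B73 array and above every Mo17 array, while the arrays of the hybrids overlapped each other. The order of the genotypes was thus B73, then both hybrids together, then Mo17. How many of all probe sets have their hybrid arrays between those of the inbreds was not counted.

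The low end of that order was loosely measured. The 25th percentile of all normalized values stood at 27.57 units and is used here as a floor, since no detection calls were at hand. sig3 was above it on 10 of 12 arrays, and the arrays below it were Mo17 replicates 1 and 3. On the log2 scale the levels were 6.82 ± 0.18 in B73xMo17, 6.69 ± 0.35 in Mo17xB73, 7.65 ± 0.17 in B73 and 3.57 ± 1.79 in Mo17 (mean ± SD, n = 3 each). The spread in Mo17 was the widest of the 4 genotypes.

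sig1 ran the other way and was dim throughout. Replicates 1 to 3 measured 12.17, 21.34 and 20.26 units in B73xMo17. They measured 11.22, 16.31 and 26.97 in Mo17xB73. The inbreds measured 2.664, 1.979 and 14.84 in B73 and 78.36, 51.54 and 51.54 in Mo17. Mo17 stood above all other arrays, and its 3 arrays were the only ones over the floor. The hybrids overlapped each other, and B73 replicate 3 lay within the range of both hybrids.

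On the log2 scale sig1 measured 4.12 ± 0.45 in B73xMo17, 4.09 ± 0.63 in Mo17xB73, 2.10 ± 1.57 in B73 and 5.89 ± 0.35 in Mo17 (mean ± SD, n = 3 each). Ranked within each array, sig1 lay between the 31.62nd and the 36.04th percentile of probe sets in Mo17 and at or below the 24.74th percentile elsewhere. Its order among B73 and the hybrids therefore rested on signals below the floor.

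**Figure D1:**
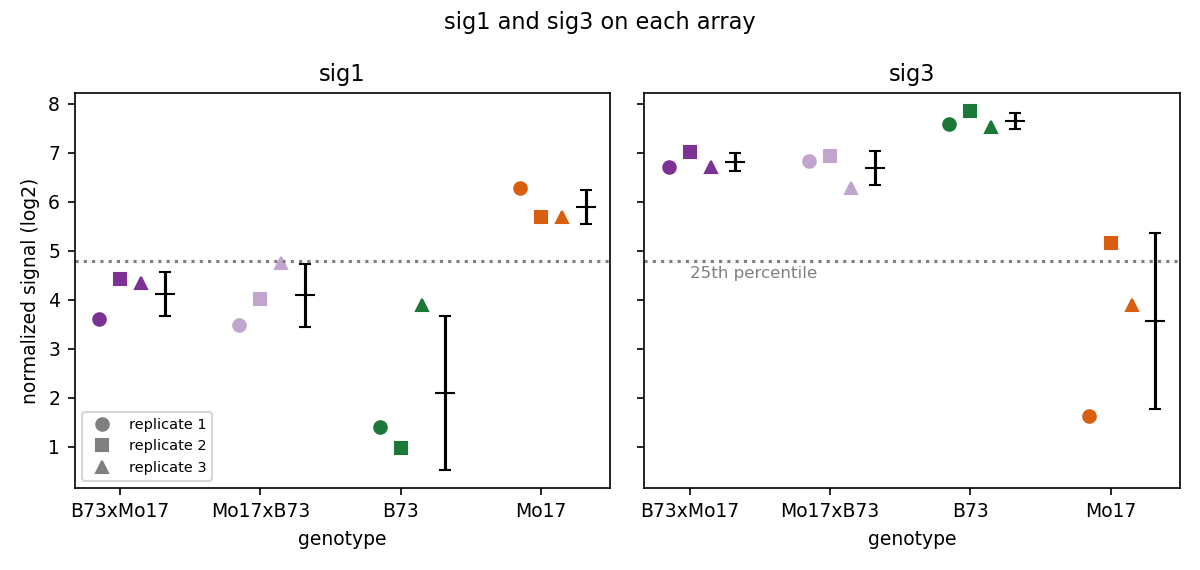
Normalized log2 signal of sig1 (left) and sig3 (right) on each array by genotype; marker shapes give the replicate, black bars the mean ± SD of 3 arrays, and the dotted line the 25th percentile of all values (4.785). sig1 is above the line in Mo17 only, and sig3 is above it on all arrays except Mo17 replicates 1 and 3.

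The inbreds differed in opposite directions for these genes. sig3 was 4.09 ± 0.61 higher in B73 than in Mo17 (log2 difference ± SE from the limma fit). sig1 stood at -3.79 ± 0.64, lower in B73 than in Mo17. Neither size is a measured fold, since sig3 in Mo17 was below the floor on 2 of 3 arrays and sig1 in B73 on all 3. The B73 and Mo17 arrays did not overlap for either gene, which was also so for 20.7% of all probe sets toward B73 and 26.2% toward Mo17.

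The directions were alike on each collection date and the sizes were not. For sig3 the difference B73 minus Mo17 was 5.95, 2.68 and 3.63 log2 units on the dates of replicates 1 to 3. For sig1 it was -4.88, -4.70 and -1.80. The dates on which the gap was wide were those on which the dim inbred gave its lowest signals, Mo17 replicate 1 for sig3 and B73 replicates 1 and 2 for sig1. Without Mo17 replicate 1 the difference of sig3 was 3.12, and without B73 replicate 3 that of sig1 was -4.68.

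With signals below the floor set to it, the difference of sig3 was 2.74, or 6.68-fold, and that of sig1 was -1.10, or 2.15-fold. The higher inbred thus stood well above the floor for sig3 (B73) and less far above it for sig1 (Mo17). As many as 189 probe sets, 1.07% of all, lay at least as far toward B73 as sig3, and 121, or 0.687%, at least as far toward Mo17 as sig1. With the floor, 216 probe sets (1.23%) reached the difference of sig3 and 719 (4.08%) that of sig1.

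**Figure D2:**
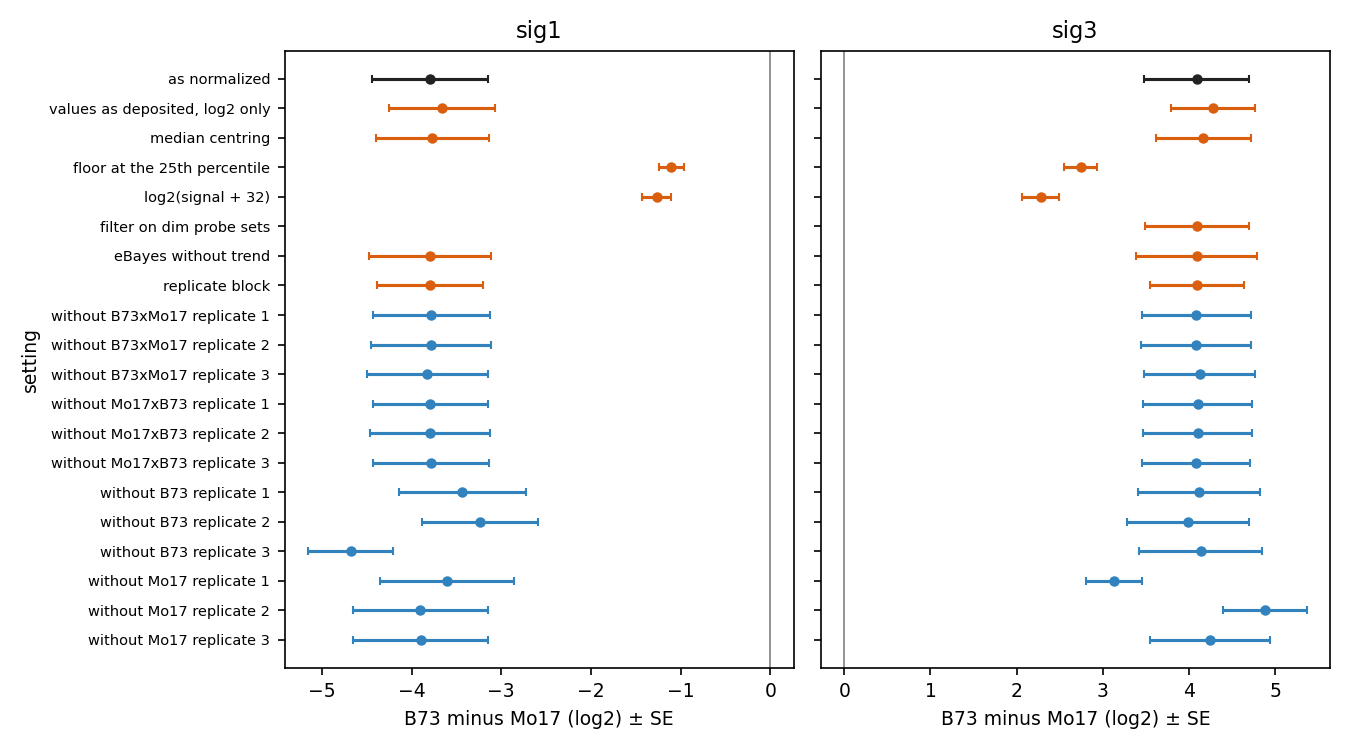
Difference B73 minus Mo17 (log2 ± SE) of sig1 (left) and sig3 (right) under each setting: black is the reported value, orange the other processing choices and blue the fits that leave out 1 array. All values keep their side of 0, and the floor and the added constant of 32 bring both genes closer to 0; sig1 has no value under the filter on dim probe sets, which removed it.

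The hybrids gave sig3 signals on both sides of the parental mean. The mid-parent, the mean of the linear B73 and Mo17 levels, was 106.6 units, and the hybrid level was 112.7 in B73xMo17 and 103.0 in Mo17xB73 (geometric means of 3 arrays). The hybrid mean lay 0.02 ± 0.51 log2 units from the mid-parent (SE), at 101.1% of it. With the floor, which narrows the spread in Mo17, the hybrid mean lay at -0.10 ± 0.15 from it. Relative to B73, the higher inbred, B73xMo17 had 55.99% and Mo17xB73 51.17% of the signal. The ratio of dominance to additive effect, d/a, takes the value 0 where hybrids equal the mid-parent, 1 where they equal the higher inbred and -1 where they equal the lower one. It was 0.01 for the hybrid mean and ran from -0.30 to 0.25 over the 6 hybrid arrays. Against the mean of the log2 levels, which is lower by construction, the hybrids of sig3 stood 1.14 higher.

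The hybrids gave sig1 signals below the arithmetic mid-parent, at signals under the floor. The mid-parent was 31.77 units, against hybrid levels of 17.39 in B73xMo17 and 17.02 in Mo17xB73. The hybrid mean was at -0.88 ± 0.53 log2 units (SE) from it, and d/a was -0.53, with -0.75 to -0.17 over the 6 hybrid arrays. All 6 hybrid arrays and all 3 of B73 were below the floor. With the floor the departure of the hybrid mean was -0.66 ± 0.10, and with 32 added before log2 it was -0.38 ± 0.12. The floor sets every hybrid and B73 array to the same level, so its value reflects the Mo17 arrays only. B73xMo17 had 29.34% and Mo17xB73 28.73% of the signal of Mo17. Against the mean of the log2 levels the sign turned, to 0.11, and on the date of replicate 1 the departure from the arithmetic mid-parent was -1.79, against -0.52 and -0.51 on the dates of replicates 2 and 3. Whether sig1 departs from additivity cannot be read from signals this dim.

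**Figure D3:**
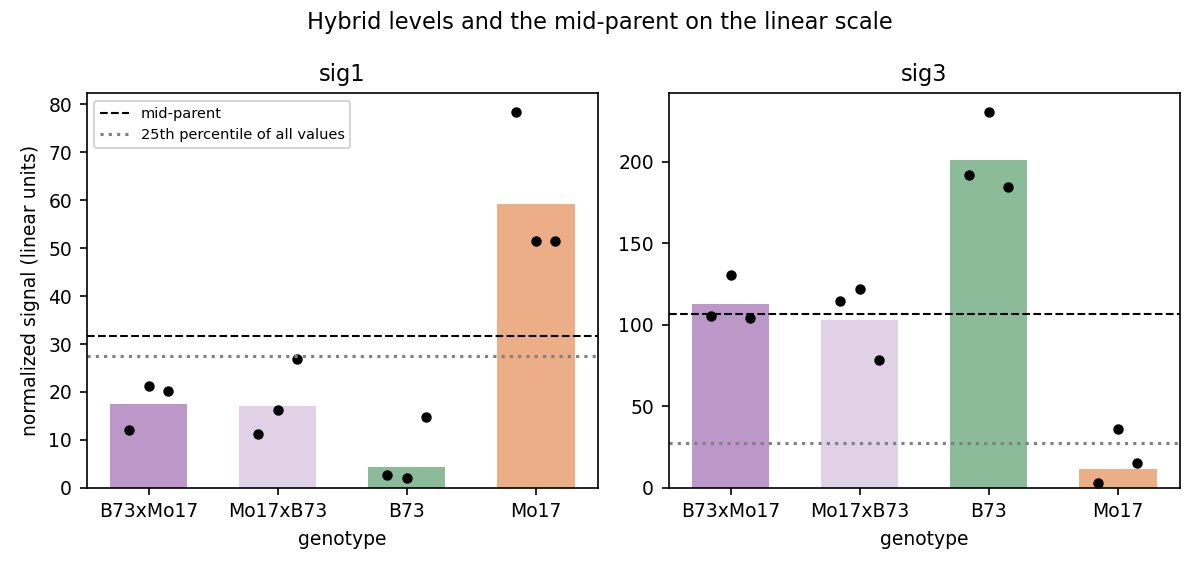
Normalized signal (linear units) of sig1 (left) and sig3 (right) by genotype; bars are geometric means of 3 arrays, points single arrays, the dashed line the mid-parent and the dotted line the 25th percentile of all values. The hybrids of sig3 scatter around the dashed line at 106.6, and those of sig1 lie under both lines.

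Embryos of the reciprocal hybrids hold the same nuclear genomes and differ in the seed parent, which also supplies the plastids. This is said of the embryo only, and the part of endosperm RNA was not tested. The genes were chosen partly by their hybrid levels, though not by the difference between the 2 hybrids. That difference was tested, and the test is not fully independent of the choice. Neither gene was called, against 0.868% of all probe sets called between the reciprocal hybrids. sig3 was 0.13 ± 0.61 higher in B73xMo17 than in Mo17xB73 (limma adjusted p = 0.965), and the differences on the 3 dates were -0.12, 0.10 and 0.42. sig1 differed by 0.03 ± 0.64 (limma adjusted p = 0.994), with -0.41 to 0.39 on the single dates. All 6 hybrid arrays of sig1 were below the floor, where the difference has no measured signal behind it, and with the floor it was 0. The intervals rest on 1 spread shared by all genotypes, which the dim inbred widens. For sig3 the SD was 0.18 in B73xMo17 and 0.35 in Mo17xB73, against 1.79 in Mo17. For sig1 it was 0.45 and 0.63 in these hybrids, against 1.57 in B73. The 95% intervals reached from a ratio of 0.44 to 2.72 for sig3 and from 0.39 to 2.68 for sig1, B73xMo17 over Mo17xB73. Equal levels were therefore not shown.

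The other 3 sigma factor genes on the array were sig2A, sig2B and sig6, which were not chosen for their values. sig2A was the one of them with signals well above the floor, and its arrays overlapped across the genotypes. Replicates 1 to 3 measured 233.7, 263.2 and 274.8 units in B73xMo17 and 233.1, 241.1 and 242.4 in Mo17xB73. They measured 235.9, 266.2 and 289.1 in B73 and 247.7, 263.0 and 240.2 in Mo17. The inbreds differed by 0.07 ± 0.11 (limma adjusted p = 0.664) and the reciprocal hybrids by 0.10 ± 0.11 (limma adjusted p = 0.796).

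sig2B and sig6 stayed below the floor on all 12 arrays. sig2B ran from 0.9197 to 10.56 units in B73xMo17, 0.9836 to 3.6 in Mo17xB73, 1.158 to 3.657 in B73 and 3.04 to 10.74 in Mo17. sig6 ran from 1.279 to 4.194 in B73xMo17, 1.509 to 15.39 in Mo17xB73, 3.046 to 10.5 in B73 and 0.9858 to 1.717 in Mo17. The inbred differences were -1.35 ± 0.95 for sig2B (limma adjusted p = 0.314) and 2.10 ± 0.91 for sig6 (limma adjusted p = 0.0908), and neither passed the threshold of 0.05. That of sig6 passed without Mo17xB73 replicate 2 (adjusted p = 0.0378). With the floor both differences were 0, so of the 5 sigma factor genes only sig1, sig2A and sig3 gave a signal above the floor on any array.

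**Figure D4:**
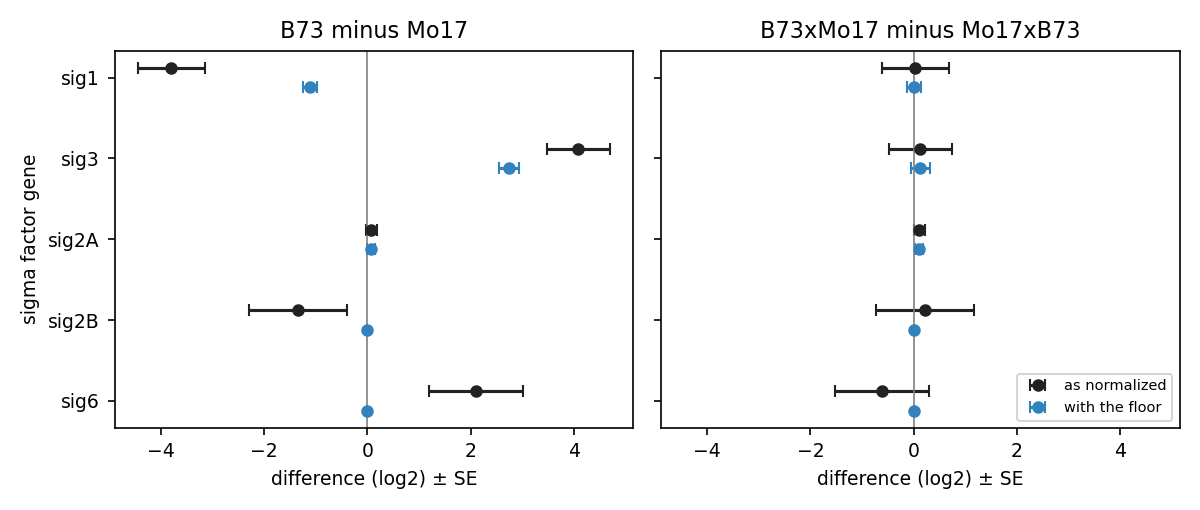
Differences B73 minus Mo17 (left) and B73xMo17 minus Mo17xB73 (right) of 5 sigma factor genes, in log2 units ± SE, as normalized (black) and with the floor (blue). sig1 and sig3 stand on opposite sides of 0 between the inbreds with and without the floor, sig2A is near 0, and sig2B and sig6 fall to 0 with the floor.

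Among the other nuclear genes of plastid gene expression, the share called between the inbreds was not clearly apart from that of the whole array. Of 14 genes 3 were called higher in B73 and 1 lower (28.6% called, against 35.9% of all probe sets in this contrast, 16.4% higher in B73 and 19.5% higher in Mo17). The count and the split depended on the setting. With median centring and with collection date as a replicate block 6 were called, 3 higher and 3 lower. The filter on dim probe sets gave 5, with 2 higher and 3 lower, from a shorter list. It removed sig2B, sig6 and tha8, and tha8 was called higher in B73 without the filter. The floor also gave 5, with 3 higher and 2 lower. The list had a median difference of 0.12, and all probe sets a median of -0.06. The called genes were CRS2, which is needed for splicing of plastid group II introns, its partner proteins CAF1 and caf2, and tha8, a further plastid intron splicing factor. Other plastid RNA factors of the list were not called, among them crs1 (0.19, limma adjusted p = 0.538), cfm6 (0.16, limma adjusted p = 0.568) and rnc1 (-0.26, limma adjusted p = 0.119).

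CAF1 and caf2 ran in opposite directions at signals well above the floor. CAF1 measured 289.9, 314.5 and 282.0 units in B73xMo17, 288.5, 223.6 and 206.0 in Mo17xB73, 124.7, 151.3 and 137.8 in B73, and 462.9, 372.8 and 362.5 in Mo17. Every hybrid array lay between the arrays of the inbreds. The difference B73 minus Mo17 was -1.53 ± 0.14 (limma adjusted p = 1.3e-06).

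caf2 measured 212.7, 334.8 and 233.2 units in B73xMo17, 214.5, 238.2 and 250.4 in Mo17xB73, 365.2, 403.0 and 440.3 in B73, and 137.1, 127.6 and 131.7 in Mo17. Its hybrid arrays lay between those of the inbreds too. For CAF1 and caf2, as for sig3, the share of all probe sets with such an order was not counted. The difference was 1.60 ± 0.15 (limma adjusted p = 1.6e-06).

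CRS2 was dimmer, with 36.18 to 48.64 units in B73xMo17, 28.91 to 36.59 in Mo17xB73, 50.54 to 54.66 in B73 and 9.098 to 14.97 in Mo17. It was 2.21 ± 0.28 higher in B73 (limma adjusted p = 2.63e-05) and 0.94 higher with the floor. tha8 was dimmer still, at 20.76 to 36.59 units in B73xMo17, 7.078 to 24.78 in Mo17xB73, 31.9 to 44.33 in B73 and 1.007 to 12.59 in Mo17. Only the 3 B73 arrays and 1 B73xMo17 array were above the floor, so its difference is not a measured fold. tha8 was 2.93 ± 0.78 higher in B73 (limma adjusted p = 0.00931), 0.42 higher with the floor and 1.81 higher without Mo17 replicate 2. The phage-type organelle polymerase genes rpo2 and rpot1 stood at -0.12 ± 0.09 (limma adjusted p = 0.342) and -0.25 ± 0.10 (limma adjusted p = 0.0579) and were not called.

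In the photosynthesis list 3 of 22 genes were called (13.6%, against 35.9% of all probe sets), and 1 of these rose and 2 fell in B73 relative to Mo17. The list median was -0.10. Part of the list was too dim for a difference to be measured. PSBQ, lhcb5, Rca, Cab-m7, pep1 and psbs1, among others, had all group means below the floor. The low share called therefore does not show that photosynthesis genes differed less than other genes. FDX6, a ferredoxin, was lower in B73 (-0.88 ± 0.09, limma adjusted p = 1.95e-06), as was mdh6, a plastid malate dehydrogenase (-0.53 ± 0.16, limma adjusted p = 0.0166). fnr1, a ferredoxin reductase, was higher in B73 (0.34 ± 0.09, limma adjusted p = 0.00825), and of its 3 dimmer probe sets 1 was called, in the same direction (0.80 ± 0.13, limma adjusted p = 0.000225). rbcS, the small subunit of Rubisco, was not called (-0.25, limma adjusted p = 0.663). The call of mdh6 was lost without B73 replicate 2 or 3 or Mo17 replicate 1 (adjusted p up to 0.065). With the values as deposited neither mdh6 (adjusted p = 0.328) nor fnr1 (adjusted p = 0.334) was called.

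Of 7 pigment genes 2 were called (28.6%, against 35.9% of all probe sets), both lower in B73, with a list median of -0.02. HYD3, a carotene hydroxylase, stood at -1.40 ± 0.14 (limma adjusted p = 2.06e-06) and ChlI, a magnesium chelatase subunit of chlorophyll synthesis, at -0.55 ± 0.18 (limma adjusted p = 0.0308). The call of ChlI was lost without B73 replicate 1 or 2 or any single Mo17 array (adjusted p up to 0.118), with the floor (adjusted p = 0.0621), without the intensity trend (adjusted p = 0.0567) and for the values as deposited (adjusted p = 0.398).

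Of 5 import genes 3 were called (60%, against 35.9% of all probe sets), 1 higher and 2 lower in B73, with a list median of 0.00. toc34, a receptor at the outer plastid envelope, was higher (0.75 ± 0.06, limma adjusted p = 4.83e-07). hcf106, a subunit of the thylakoid Tat translocase, stood at -0.83 ± 0.13 (limma adjusted p = 0.000153) and SECY, a thylakoid protein channel, at -0.29 ± 0.08 (limma adjusted p = 0.0156). With the values as deposited hcf106 (adjusted p = 0.0986) and SECY (adjusted p = 0.748) were not called, and SECY was also lost without B73 replicate 2 or Mo17 replicate 3 (adjusted p up to 0.0541).

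Between the reciprocal hybrids limma called 0 of the 48 genes of these 4 lists, against 0.868% of all probe sets. An unadjusted p below 0.05 was found for 4 of them, and for 11.5% of all probe sets.

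**Figure D5:**
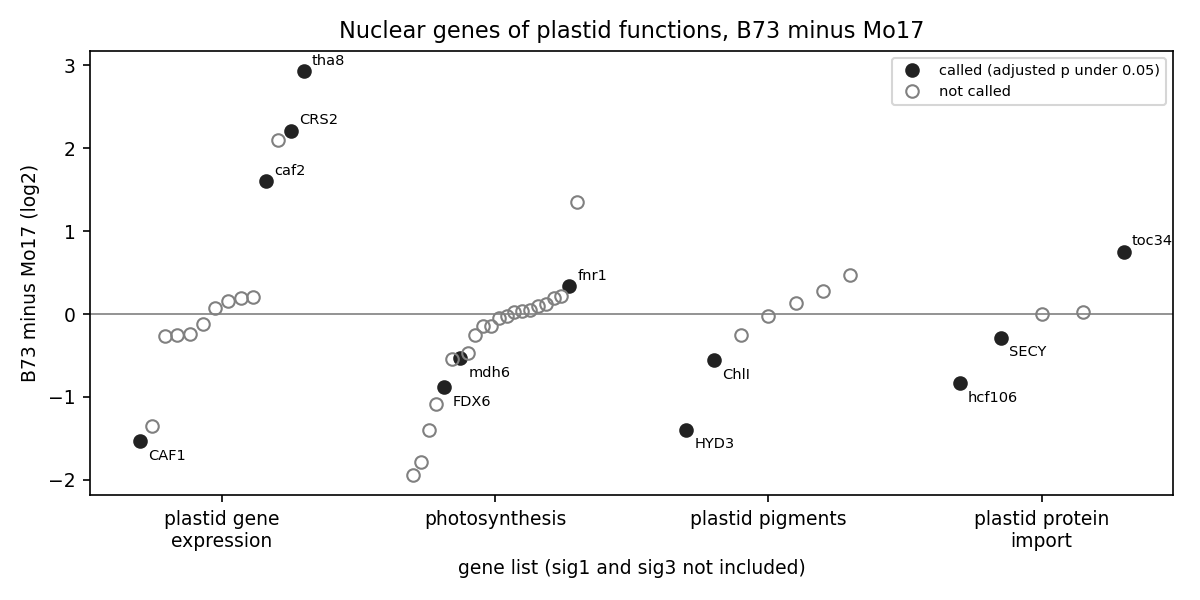
Difference B73 minus Mo17 (log2) of the genes in 4 lists of nuclear genes for plastid functions, 1 probe set a gene, sorted within each list; filled points passed the limma threshold and carry their gene names. CAF1 and caf2 lie on opposite sides of 0 at -1.53 and 1.60.

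Other genes were ranked by how closely their signals followed those of sig1 and sig3. Likeness was the Pearson r of normalized log2 signal over the 12 arrays, against 1018 probe sets with a gene name and a level at or above the floor in at least 1 genotype. It is a description, since the arrays share genotypes and any gene with the same order of genotypes scores high: r was above 0.8 for 6.78% of these probe sets with sig1 and 8.25% with sig3. Nearest to sig1 were AKHSDH1, an aspartate kinase and homoserine dehydrogenase (0.941), pdi5, a protein disulfide isomerase (0.932), magi81248 (0.924), RR10, a response regulator (0.917), and trh2, a thioredoxin h (0.913). Their inbred differences were between -1.92 for pdi5 and -0.48 for AKHSDH1. The floor was not asked of sig1 itself, which was above it on only 3 of 12 arrays. The r values of sig1 thus rest largely on dim signals.

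Nearest to sig3 were aoc1, an allene oxide cyclase (0.96), cycD1, a D-type cyclin (0.949), a probe set of the delta zein gene dzs18 (0.948), eif3, a translation initiation factor (0.938), and phb4, a prohibitin (0.938). Their inbred differences, B73 minus Mo17, ranged from 0.51 for phb4 to 10.09 for the dzs18 probe set. That probe set was below the floor in Mo17, and with the floor its difference was 8.63. The brightest probe set of dzs18 stood at 7.04. A high r thus went with gaps narrower and wider than that of sig3.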

How the data were processed

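The deposited table holds linear intensity values of 17734 probe sets on 12 arrays. MAS5 is the tool given in the submitters' processing notes, without a version. No detection calls were used here. The array medians of the deposited intensity ran from 192.1 to 313.8, so the arrays were not on 1 scale. Leaving out 113 Affymetrix control probe sets gave 17621, among them 66 for reporter sequences. Quantile normalization between arrays followed on log2 values. The fit of 4 group means used limma 3.58.1 (R 4.3.3; lmFit, eBayes with an intensity trend, 8 residual degrees of freedom and 5.1 prior ones at the median) and all arrays, two-sided, with Benjamini-Hochberg adjustment over all probe sets and a threshold of 0.05. The hybrid mean was set against the arithmetic mid-parent with a delta-method SE. The procedure was tested on simulated data.

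Gene names came from the platform annotation, updated by gene ID in the RefSeq table of Zm-B73-REFERENCE-NAM-5.0 (1060 of 1108 genes matched), which was used for names only. Where a list gene had several probe sets, the brightest on average stood for it. Lists were matched by name, and names that belonged to other genes were removed by hand. Of each list, up to 4 genes with the smallest adjusted p among those called are named, beside sigma factor genes, genes named to place a result (rpo2, rpot1, rbcS, crs1, cfm6, rnc1, chosen after their values were seen) and the 5 most alike probe sets. The members and lists were chosen with earlier results of these data known. A transcript at a lower level and probes that match 1 line's allele less well cannot be told apart. Precision is limited by the number of arrays.

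The growth protocol in the labels states that the material of each biological replicate was collected on 1 date, so the numbers pair the samples. Deviations from the group means correlated between -0.053 and 0.057 for samples of the same number. Alternatives were the values as deposited, median centring, the floor, a constant of 32 added before log2, a filter on dim probe sets, no intensity trend, the replicate number as a block, and leaving out each array.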

Additional observations from a re-analysis of the deposited data

How the results depend on the processing

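The inbred differences of sig1 and sig3 kept their direction under all alternatives run, while their size depended on how dim signals were treated. With the floor they were -1.10 for sig1 and 2.74 for sig3, and with 32 added before log2 they were -1.27 and 2.28, both of which compress dim signals by construction. Leaving out single arrays gave -4.68 to -3.24 for sig1 and 3.12 to 4.88 for sig3. The filter on dim probe sets removed sig1 and so gave no value for it. With the mean of log2 levels as mid-parent, a lower value by construction, the hybrids stood at 0.11 for sig1 and 1.14 for sig3. Leaving out single arrays gave -1.04 to -0.71 for sig1 and -0.06 to 0.11 for sig3 against the arithmetic one. The floor gave -0.66 for sig1 and -0.10 for sig3 against it. The reciprocal difference ran from -0.27 to 0.36 for sig1 and from -0.0687 (without Mo17xB73 replicate 3) to 0.25 for sig3 when 1 array was left out, so its sign was not settled. It ran from -0.89 to 0.87 for sig2B and from -1.19 to 0.48 for sig6, and none was called.

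The probe sets called between the inbreds numbered 6321 (2889 higher in B73 and 3432 in Mo17). With the values as deposited 2963 were called (1813 higher in B73 and 1150 in Mo17), and the cause was not tested. Between the reciprocal hybrids 153 were called, and 42 with the values as deposited, 76 with the floor, 39 without the intensity trend and 51 to 144 without single arrays (the lowest without Mo17xB73 replicate 3, 57 without its replicate 2 and 95 without its replicate 1, 72 without B73xMo17 replicate 2 and 61 without its replicate 3). Of the photosynthesis genes 1 was called with the values as deposited, 5 with the floor, 5 with 32 added, and 6 probe sets when all were counted. Of the import genes 1 was called with the values as deposited, and of the pigment genes 1 with those values, with the floor and without the trend, and 1 to 2 without single arrays. With the replicate number as a block the reciprocal differences stayed at 0.03 for sig1 (limma adjusted p = 0.993) and 0.13 for sig3 (adjusted p = 0.954), and 6562 and 187 probe sets were called between the inbreds and between the hybrids. The block changed no call of sig1 or sig3. Signals below the floor limit sig1, sig2B and sig6 most.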
